A study of Homo sapiens with 2 samples.

Results

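The centromere-flanking regions of 17 human chromosomes were examined for H3K27me3, the histone H3 tail trimethylated at lysine 27, in HCT116, an established human colorectal carcinoma cell line. On each of chromosomes 1 to 12 and 16 to 20, the longest run of 1 kb bins listed in neither count file was taken as the gap at the centromere, and 3 Mb on each side of it formed a p-arm and a q-arm flank. This gave 34 flanks, or 102000 of the 2880076 autosomal 1 kb bins. The rule used where bins were listed and not how many reads they held. The first bin of each flank is therefore listed in at least 1 library by construction.

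The series held 1 group of 2 ChIP-seq libraries of HCT116 cells grown in McCoy's 5A medium with serum, with no treatment or genetic change named; the labels speak of biological replication. Chromatin was fixed with formaldehyde and precipitated with an H3K27me3 antibody, and no input library was analysed here. The total was 53187504 reads for replicate 1 and 97031399 for replicate 2. A level is the read count of a 1 kb bin over the library's mean across listed autosomal bins, a mean of 22 reads for replicate 1 and of 37.5 for replicate 2. A single read thus gives 0.0454 in replicate 1 and 0.0266 in replicate 2, and a bin that takes the same share of all reads in both libraries has a level ratio of 0.935, replicate 1 over replicate 2.

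H3K27me3 is placed by Polycomb repressive complex 2, whose catalytic subunit is EZH2 or EZH1, and marks facultative heterochromatin, in which developmental genes are kept silent. Human centromeres are built on arrays of alpha satellite DNA, on part of which the histone variant CENP-A replaces H3, and the sequence around them is known as constitutive heterochromatin, marked by H3K9me3 and DNA methylation. The hg19 assembly leaves most satellite DNA out and shows it as gaps. Reads from many satellite or duplicated copies can therefore pile up on the few copies that the assembly holds. Chromosomes 1, 9 and 16 are known for large blocks of classical satellite DNA on the long arm next to the centromere. No genome of this build was used here, so no sequence of these bins is shown and no gene is placed in them.

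The unlisted runs fell into a common size and 3 long ones. On 14 of the 17 chromosomes the run was at most 3300 kb long, and the median was 3099 kb. The run of chromosome 1 was the longest, at 21049 kb from 121486001 to 142535000. The run of chromosome 9 covered 18281 kb from 47267001 to 65548000, and that of chromosome 16 covered 11099 kb from 35286001 to 46385000. These 3 chromosomes are the ones with the large satellite blocks named above.

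Reads were placed on most of the flank sequence, with few flanks as exceptions. Over the 34 flanks, 76.0% of 1 kb bins were listed in replicate 1 and 82.8% in replicate 2, against 88.1% and 94.1% in the rest of the same chromosomes. Bins listed in both libraries made up 72.4% of the flanks and 85.4% of the rest. The 3 Mb at the ends of the same chromosomes stood between, at 78.4%. The median flank had 80.5% of its bins listed in both libraries, and 18 flanks reached 80%. The share depended on depth: replicate 2 thinned in pairs of reads to the depth of replicate 1 had 75.5% of flank bins listed.

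In 5 flanks fewer than 50% of bins were listed in both libraries. The p-arm flank of chromosome 9 was the emptiest at 7.0%, and its q-arm flank had 16.4%. The q-arm flank of chromosome 1 had 37.6%, the p-arm flank of chromosome 2 had 40.5% and the q-arm flank of chromosome 7 had 46.0%. The p-arm flank of chromosome 2 held the longest further unlisted stretch of all flanks, 1056 kb. It was followed by 371 kb in the p-arm flank of chromosome 9 and 308 kb in that of chromosome 11.

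As a whole, the flanks had a lower mean H3K27me3 level than the rest of the same chromosomes. Their mean level over listed bins was 0.850 in replicate 1 and 0.837 in replicate 2, against 1.00 in the rest of the same chromosomes in both libraries. The median listed flank bin stood at 0.318 and 0.293, against 0.409 and 0.373 in the rest. The next 3 Mb beyond each flank had mean levels of 0.858 and 0.852, and the chromosome ends 0.892 and 0.866. No test was made between the flanks and the rest, since regions are not replicates and with 2 libraries an exact sign-flip permutation test cannot give a two-sided p below 0.5. No level is corrected for copy number or mappability, since no input library was used, and their part in these differences was not tested.

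**Figure D1:**
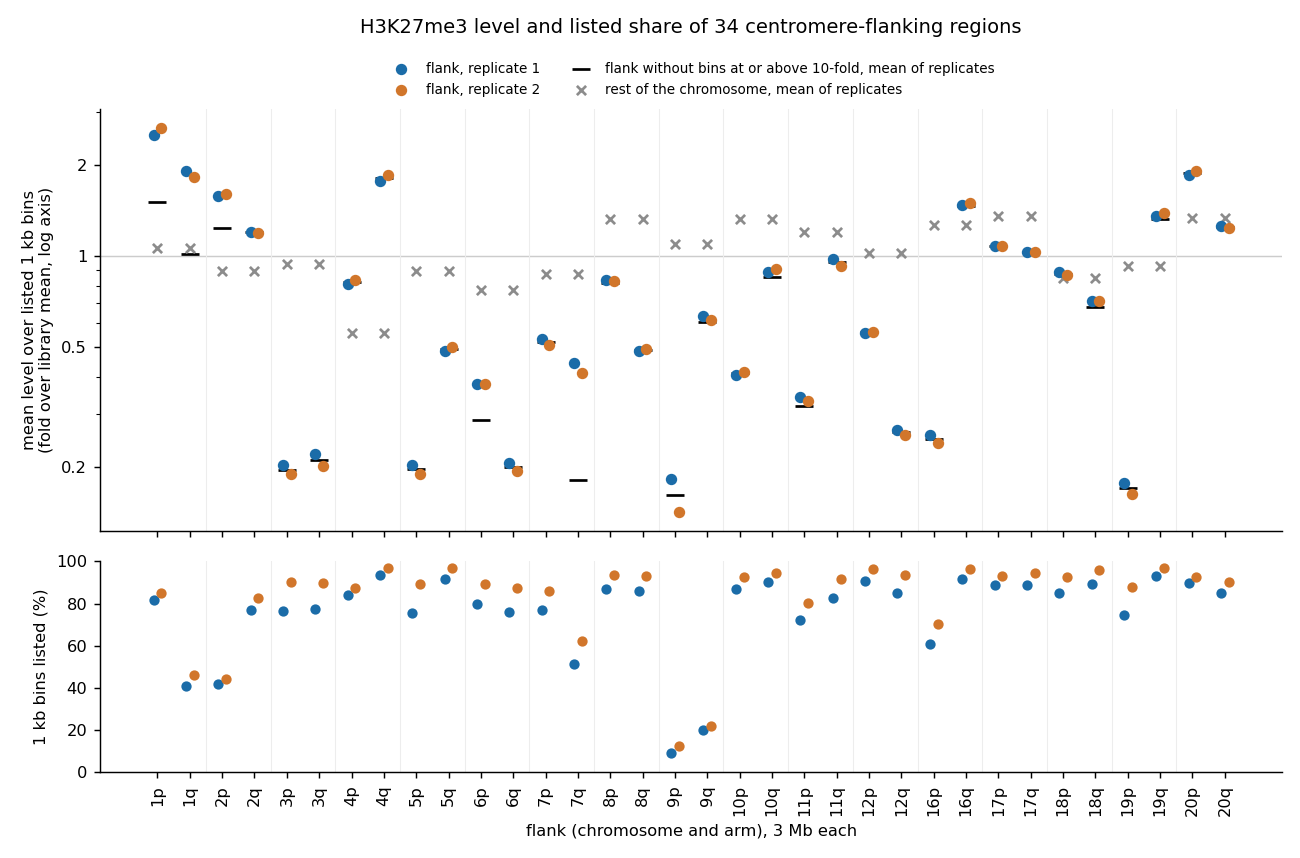
Mean H3K27me3 level over listed 1 kb bins (upper plot, fold over the library mean on a log axis) and share of 1 kb bins listed (lower plot, percent) for the 34 flanks of 3 Mb, ordered by chromosome and arm. Filled points are the 2 replicates, dashes the flank without bins at or above 10-fold and crosses the rest of the chromosome; the flanks lie between 0.163 on 9p and 2.59 on 1p.

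The flanks differed from each other far more than the replicates did. The mean level of a flank ranged from 0.163 ± 0.0285 on 9p to 2.59 ± 0.0975 on 1p (SD, n = 2), and the median flank had 0.671 in replicate 1 and 0.664 in replicate 2. In both libraries 11 flanks were above 1-fold and 13 were under 0.5-fold. The ratio of replicate 1 to replicate 2 lay between 0.948 and 1.28, with the highest on 9p, where the median listed bin held only 2 reads in replicate 1 and 3 in replicate 2. Across the 34 flanks, log2 levels of the replicates had a Pearson r of 0.999, a description of regions that share the library and the reference assembly.

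By the mean over listed bins, the 5 highest flanks were 1p, 20p, 1q, 4q and 2p. The 1p flank stood at 2.52 in replicate 1 and 2.65 in replicate 2, and the 1q flank had 1.92 and 1.83. The 20p flank had 1.86 and 1.92, the 4q flank 1.78 and 1.86, and the 2p flank 1.58 and 1.61. They reached these means in different ways. In 20p and 4q the median listed bin itself was high, at 1.5 in replicate 1 and 1.55 in replicate 2 on 20p and at 1.27 and 1.31 on 4q, and no 1 kb bin reached 10-fold in both libraries. In 1q the median listed bin was only 0.364 in replicate 1 and 0.266 in replicate 2, and bins at or above 10-fold held 49.4% and 49.0% of its reads. With unlisted bins counted as 0, 1q had 0.785 in replicate 1 and 0.844 in replicate 2, and 2p 0.667 and 0.711. Both were then below 16q at 1.35 and 1.44, 19q at 1.27 and 1.35 and 20q at 1.07 and 1.12, while 1p, 20p and 4q were still the highest.

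By the mean over listed bins, the 5 lowest flanks were 9p, 19p, 3p, 5p and 6q. The 9p flank had 0.183 in replicate 1 and 0.143 in replicate 2, the 19p flank 0.178 and 0.164, and the 3p flank 0.203 and 0.190. The 5p flank had 0.204 and 0.191, and the 6q flank 0.207 and 0.194. In 3p, 5p and 6q the median listed bin held 4 reads in replicate 1 and 6 in replicate 2, so single bins there carry large counting error. Apart from 9p, these flanks had between 66.5% of their bins listed in both libraries on 19p and 70.8% on 3p. With unlisted bins counted as 0, 9p had 0.0170 in replicate 1 and 0.0176 in replicate 2. By that value 9q, at 0.127 and 0.137, was below 19p, at 0.133 and 0.144. The 16p flank then had 0.156 and 0.170, and 6q 0.157 and 0.170. As background, the short arm of chromosome 19 near the centromere is known for clustered KRAB zinc finger genes.

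The arms of a chromosome could differ widely. The q-arm flank was higher in both libraries on 8 chromosomes and the p-arm flank on 9. On chromosome 19 the q-arm flank had 1.36 in replicate 1 and 1.39 in replicate 2, against 0.178 and 0.164 in the p-arm flank, a ratio of 7.67 and 8.51. On chromosome 16 the q-arm flank had 1.47 and 1.497, against 0.256 and 0.241 in the p-arm flank, a ratio of 5.74 and 6.21. The arms of chromosome 3 were both low and those of chromosome 17 both near 1, with a q-over-p ratio of 1.09 and 1.07 on chromosome 3 and of 0.952 and 0.950 on chromosome 17. Over the 17 chromosomes the log2 levels of p-arm and q-arm flanks had a Pearson r of 0.402 in replicate 1 and 0.384 in replicate 2.

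A flank resembled its neighbouring sequence more than its chromosome as a whole. Log2 levels of the 34 flanks had a Pearson r of 0.718 in replicate 1 and 0.726 in replicate 2 with those of the next 3 Mb outward, and of 0.0975 and 0.0891 with the rest of their chromosome. These are descriptions across regions of the same libraries, and the rest of a chromosome enters for both of its flanks. In both libraries 10 flanks were above the rest of their chromosome and 24 below it. The 4q flank stood farthest above, at 3.16 times the rest of chromosome 4 in replicate 1, and chromosome 4 had the lowest rest of the 17 at 0.562 in replicate 1. The 9p flank stood farthest below, at 0.168 times the rest of chromosome 9 in replicate 1.

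Enriched sequence was less frequent in the flanks than in the genome as a whole. Reads were summed in 5 kb bins, and the counts were compared with the library's mean over listed autosomal 5 kb bins by a one-sided Poisson test. That mean was 97.8 reads in replicate 1 and 178 in replicate 2. Levels of 5 kb bins and of the domains below are over that mean and not over the 1 kb mean. Enriched bins were those that, in both libraries, had a Benjamini-Hochberg adjusted p below 0.05 together with a level of 2-fold or more. Of the 18543 tested 5 kb bins of the flanks 1892 were enriched, or 10.2%, against 14.1% of all tested bins of chromosomes 1 to 22 and X. Among 5 kb bins whose 1 kb bins were all listed, the share was 19.6% in the flanks and 23.3% over all such bins. The p-arm flanks had 8.75% and the q-arm flanks 11.6%. Bins under 0.5-fold in both libraries made up 65.0% of the flanks, against 55.6% of the autosomes. The Poisson test covers counting error only, and whether these shares differ beyond chance was not tested.

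The enriched bins were unevenly spread over the flanks. The share was highest on 20p at 39.6% and on 4q at 38.0%, followed by 16q at 30.3% and 1p at 26%. No bin was enriched in 8 flanks, which were 3p, 3q, 5p, 6q, 9p, 12q, 16p and 19p. They were also the 8 flanks of lowest mean level, a value from the same counts. On chromosome 3 neither arm held an enriched bin, and on chromosomes 5, 6, 9, 12, 16 and 19 the other arm held between 1 and 182.

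Joining enriched bins across gaps of up to 1 bin gave domains, of which 404 overlapped a flank. Their levels are scaled to the 5 kb mean, so they are not on the scale of the 1 kb levels. Their median length was 10 kb, the same as over all 13260 domains, and 24 of them, or 5.94%, reached 100 kb, against 7.09% of all domains. Of these 24, 19 had at least 100 kb inside a flank, in 11 flanks. The longest was the 445 kb domain of 4q between 55100001 and 55545000, which lay wholly inside the flank and had a level of 4.08 ± 0.0384 (SD, n = 2). The 3 domains after it crossed the outer end of their flank, and only 105, 46 and 4 kb of them lay inside: 290 kb on 4q from 55555001 to 55845000 at 4.18 ± 0.0329, 265 kb on 19q from 30685001 to 30950000 at 4.05 ± 0.00309, and 265 kb on 2p from 89065001 to 89330000 at 4.65 ± 0.0128 (each SD, n = 2). The fifth lay wholly inside 16q, 260 kb from 47870001 to 48130000, at 3.99 ± 0.0337 (SD, n = 2).

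**Figure D2:**
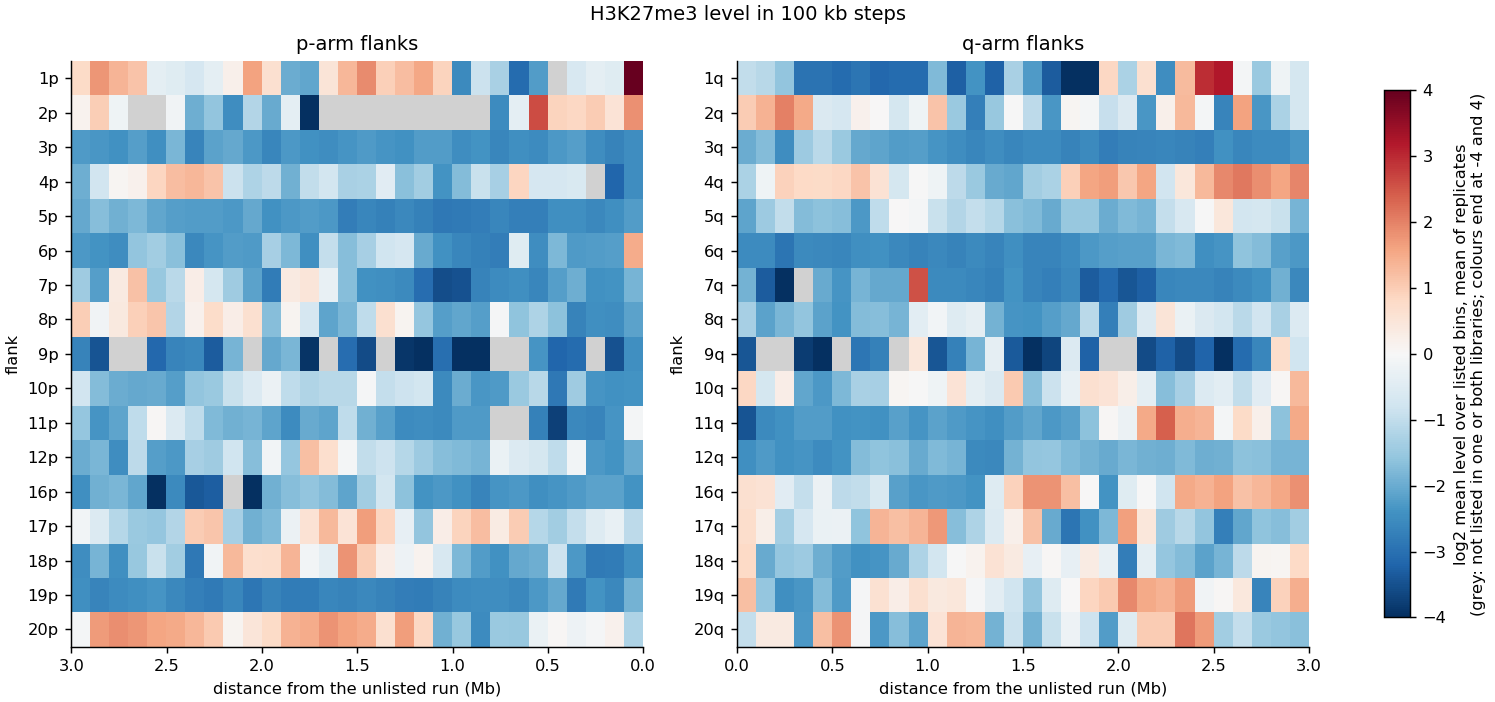
Level of the 34 flanks in steps of 100 kb by distance from the unlisted run (x axis, Mb), with p-arm flanks at the left and q-arm flanks at the right; colour is the log2 mean level over listed 1 kb bins, averaged over the replicates, and grey marks steps not listed in at least 1 library. The flanks of chromosome 3 and the 5p, 6q and 19p flanks are low throughout, 4q and 20p are high over long stretches, and the step of 1p beside the run, at 146-fold, lies beyond the colour limits.

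Over both arms, the enriched share was lower within 1 Mb of the run than in the outer 1 Mb. In the band from 0 to 0.1 Mb 6.40% of tested 5 kb bins were enriched, and the lowest share, 5.16%, was found from 0.5 to 1 Mb. It was 8.15% from 1 to 1.5 Mb, 10.8% from 1.5 to 2 Mb, 15.4% from 2 to 2.5 Mb and 14.9% from 2.5 to 3 Mb. The arms differed in this. In the p-arm flanks the share was 3.26% in the first 0.1 Mb, and 11.03% and 12.2% in the last bands. All enriched p-arm bins of the first 0.1 Mb lay in domains of 1p, 2p, 6p and 11p. Each of these domains held a 1 kb bin at or above 10-fold in both libraries. Among q-arm domains of the first 0.1 Mb, those of 10q, 16q, 18q and 19q held such bins, and those of 1q, 2q, 8q and 17q did not. In the q-arm flanks it was 9.60% in the first 0.1 Mb and lowest at 6.26% from 1 to 1.5 Mb, and 19.7% and 17.4% in the last bands. The share of all tested bins was 14.1%. The listed share went the same way, with 66.6% of 1 kb bins listed in both libraries in the first 0.1 Mb and 79.1% in the outermost band.

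The mean level had its highest value in the innermost band, and this value rested on few bins. Over the first 0.1 Mb the mean was 1.90 in replicate 1 and 1.90 in replicate 2, against 0.588 and 0.565 from 0.1 to 0.25 Mb and 0.994 and 0.988 from 2.5 to 3 Mb. Without its 29 bins at or above 10-fold the innermost band had 0.525 and 0.515, lower than the outermost band without such bins, at 0.953 and 0.947. The 2 bins of 1p decided most of this: without the flanks of chromosome 1 the innermost band had 0.855 and 0.851, and the outermost 0.898 and 0.891. The median listed bin of the innermost band was 0.227 in replicate 1 and 0.213 in replicate 2, and that of the outermost band was 0.364 and 0.346.

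Most flanks were poor in the mark right beside the run. In the first 0.1 Mb the median flank had a level of 0.273, and 9 of 34 flanks reached 1-fold. The lowest was 11q at 0.0910, where 2.00% of bins were listed in both libraries. The edge of the run was not sharp on every chromosome. When the run was allowed to bridge listed stretches of at most 5 bins, 12 of the 34 edges moved, by 702 kb on 9q and 105 kb on 11q. The first 0.1 Mb of 11q then had 0.170 in replicate 1 and 0.169 in replicate 2, with 67.0% of bins listed in both libraries, and that of 9q had 0.168 and 0.143. Over all flanks the innermost band then had 1.79 and 1.78, and 6.19% of its tested 5 kb bins were enriched. Of the 9 flanks, 2q and 17q reached 2.01 ± 0.0574 and 1.64 ± 0.105 (SD, n = 2) with no bin at or above 10-fold. The other 7, namely 1p, 2p, 6p, 10q, 16q, 18q and 19q, each held at least 2 such bins there. In the outermost band 10 flanks reached 1-fold, and the highest was 4q at 3.70.

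**Figure D3:**
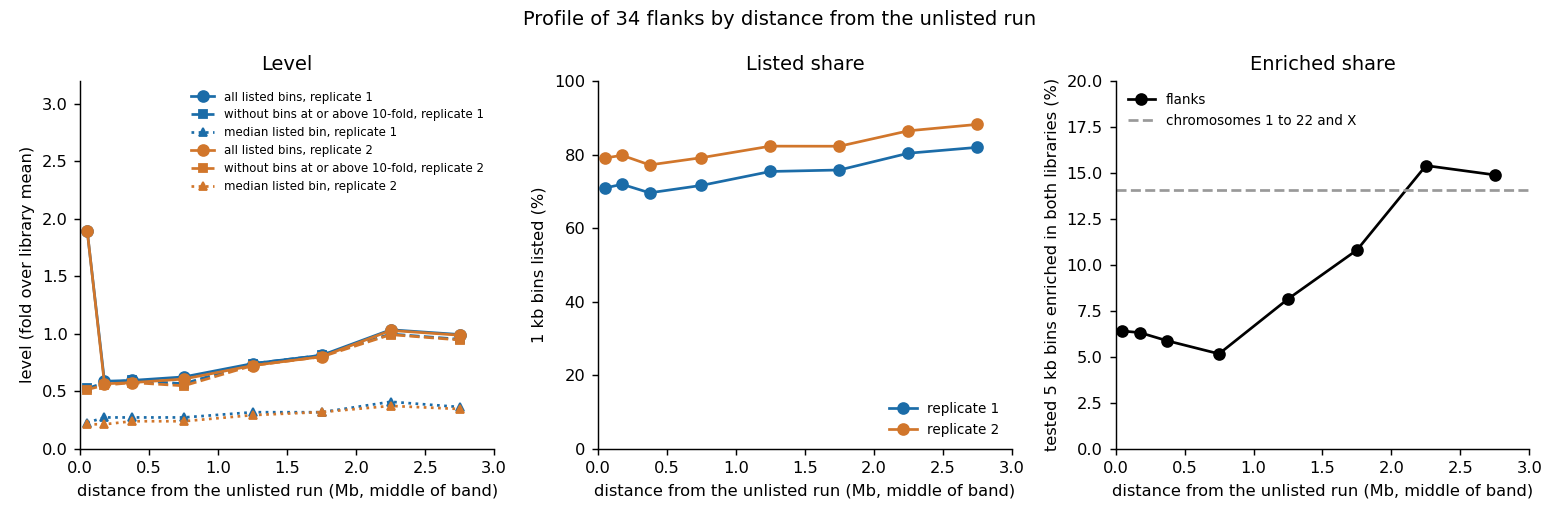
Profile of the 34 flanks in 8 bands of distance from the unlisted run (x axis, middle of the band in Mb): level of listed 1 kb bins per replicate as mean, mean without bins at or above 10-fold, and median (left), share of bins listed in percent (middle) and share of tested 5 kb bins enriched in both libraries in percent (right, black, with all tested bins of chromosomes 1 to 22 and X as the dashed line at 14.1%). The mean of all listed bins is 1.90 in the first band, and 0.525 in replicate 1 once bins at or above 10-fold are left out.

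Bins at or above 10-fold in both libraries, called extreme bins, were concentrated in a few flanks. The flanks held 145 of them, or 0.196% of their bins listed in both libraries, against 0.0404% of all autosomal bins listed in both. The rest of the same chromosomes held 761, or 0.0394%, the next 3 Mb outward held 3 and the chromosome ends held 35. Of the 145 bins 86 lay in 1q and 30 in 2p, and 22 flanks held none. Without the flanks of chromosome 1, a choice made after seeing the data, 57 bins remained, or 0.0811% of bins listed in both libraries. Extreme bins held 8.02% of the flank reads in replicate 1 and 8.27% in replicate 2, against 0.441% and 0.427% of the reads in the rest of the same chromosomes.

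Extreme bins joined across at most 10 kb formed 19 clusters, 6 of them single bins. The mean level of a cluster is taken over all listed bins of its span, including bins under 10-fold between the extreme ones. The cluster with most reads was the last pair of bins of 1p, chromosome 1 from 121484001 to 121486000, which touches the unlisted run. Its bin from 121485001 to 121486000 held 32169 reads in replicate 1 and 61225 in replicate 2, which made levels of 1462 and 1631. The other bin held 23875 and 46027 reads, for levels of 1085 and 1226. The pair took 0.105% of all reads of replicate 1 (Wilson 95% interval 0.105 to 0.106) and 0.111% of replicate 2 (0.110 to 0.111), intervals that cover counting error only. It made up 41.2% of the reads of 1p in replicate 1 and 42.2% in replicate 2.

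The next highest bins also lay in clusters of few bins. On chromosome 7, 3 bins of 7q from 61968001 to 61971000, at 914 kb from the run, had a mean level of 139 ± 12.2 (SD, n = 2), and the highest of them had 229 in replicate 1 and 266 in replicate 2. The bins on its sides had 119 and 127, and 43.6 and 50.1. These 3 bins held 57.4% of the reads of 7q in replicate 1 and 57.7% in replicate 2, and the bins around the cluster had a median level of 0.0454 and 0.0266, the value of 1 read. The last 4 bins of 6p, from 58776001 to 58780000, had a mean level of 58.8 ± 5.62 (SD, n = 2), with 78.0 in replicate 1 and 91.8 in replicate 2 as the highest single-bin values. On 19q a cluster of 8 kb that starts at the run, from 27731001 to 27739000, had 22.5 ± 2.19 (SD, n = 2) and its highest bin 74.5 in replicate 1 and 81.5 in replicate 2.

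Clusters with fewer reads or lower levels lay beside the runs of other chromosomes. On 18q the cluster from 18512001 to 18521000 had 12.7 ± 0.659, on 10q that from 42385001 to 42397000 had 9.19 ± 1.05, and on 2p that from 92281001 to 92321000 had 6.57 ± 0.560 over all its listed bins (each SD, n = 2). The highest single bin was 47.0 in replicate 1 and 56.1 in replicate 2 on 10q, 41.3 and 45.7 on 2p, and 32.2 and 34.1 on 18q. A single bin of 11p, from 51579001 to 51580000 at 14 kb from the run, had 36.7 and 43.2.

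Broad clusters were of another shape. In 1q, extreme bins filled 44 of the 55 kb from 144987001 to 145042000 and 42 of the 69 kb from 145055001 to 145124000. Over all listed bins of these spans the mean levels were 13.1 ± 0.529 and 10.9 ± 0.648 (SD, n = 2). The bins outside them were high as well, at a median of 3.68 in replicate 1 and 4.01 in replicate 2 around the first and 3.34 and 3.90 around the second. They begin 2452 and 2520 kb from the run. In 2p, 18 of the 34 kb from 91761001 to 91795000 were extreme, and the listed bins of this span had a mean of 10.4 ± 0.463 (SD, n = 2). A smaller cluster with 3 extreme bins lay between 91813001 and 91822000, where the listed bins had a mean of 7.35 ± 0.266 (SD, n = 2). Around the first of these clusters the median level was 3.09 and 3.24.

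The neighbours of extreme bins differed in the same way. For 33 extreme bins, in 11 flanks, the 10 bins on each side had a median level under 1-fold, and 24 of these 33 lay within 100 kb of the run. For 109 bins the neighbours were at or above 2-fold, of which 86 were in 1q, 22 in 2p and 1 in 10q. Bins of a dense cluster are each other's neighbours. Of the 776 extreme autosomal bins outside the flanks, 10 had neighbours under 1-fold (1.29%) and 757 had neighbours at or above 2-fold (97.6%), against 22.8% and 75.2% in the flanks. The run itself counts as level 0 here, and 15 of the 33 bins were near enough to have some of it among their neighbours. With the bins of the run left out, a choice made after seeing the data, 26 bins (17.9%) had neighbours under 1-fold, and 21 (14.5%) when the median was taken over listed neighbours only. The highest extreme bin outside the flanks had a level of 46.6, and 8 bins of the flanks were at or above 50-fold.

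On the median, extreme bins took close to the same share of both libraries where neighbours were high, and a larger share of replicate 2 where they were low. Their level ratio of replicate 1 over replicate 2 had a median of 0.902 where neighbours were under 1-fold and 0.933 where they were at or above 2-fold, against the 0.935 of equal shares. The ratio lay between 0.807 and 1.18 among the first 33 bins and between 0.726 and 1.26 among the 109. Whether an extreme bin holds collapsed repeats, extra copies or more mark per copy was not tested, as this needs an input library or the sequence.

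**Figure D4:**
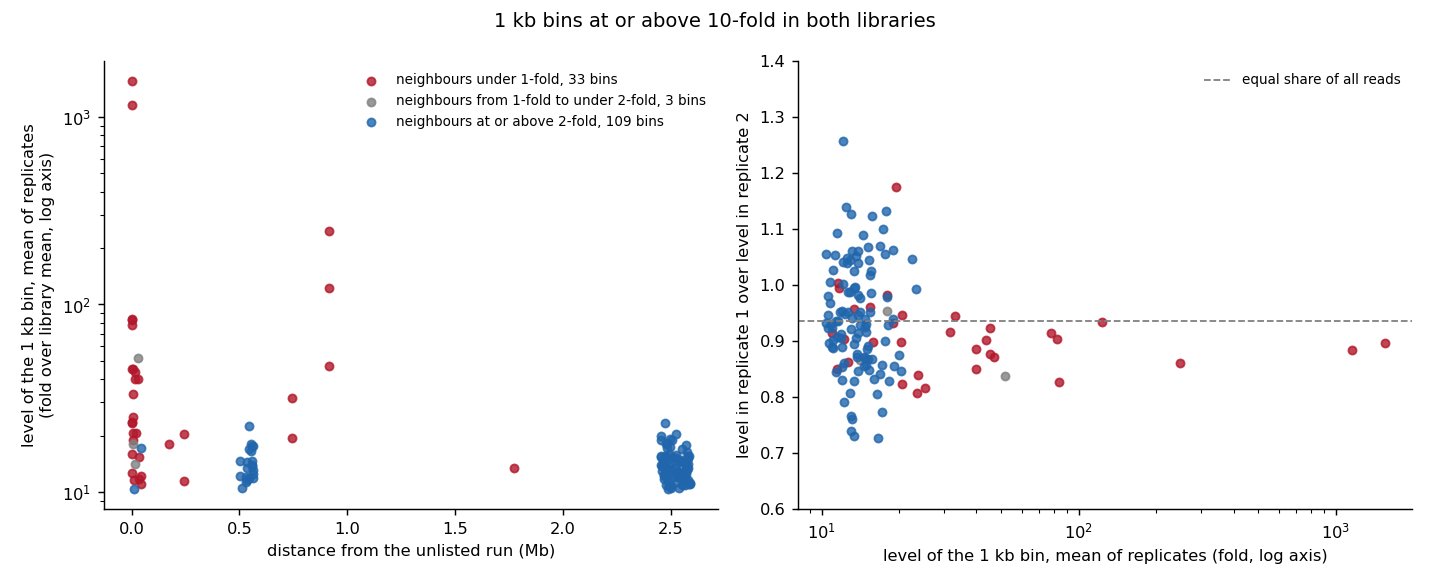
The 145 extreme 1 kb bins of the flanks: level as the mean of the replicates (left, log axis) against distance from the unlisted run in Mb, and level in replicate 1 over that in replicate 2 against level (right, log x axis), with the dashed line at the 0.935 of equal shares of all reads. Red marks the 33 bins with neighbours under 1-fold (the run counted as 0), most of them beside the run, and blue the 109 with neighbours at or above 2-fold, of which 2 lie within 100 kb of the run and the others in narrow groups at about 0.5 and 2.5 Mb.

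Leaving the extreme bins out changed the order of some flanks. The level of 1p became 1.51 and that of 1q 1.02, which put 1p at rank 3 and 1q at rank 11 of the 34, with 20p and 4q at ranks 1 and 2. The 7q flank had 0.428 with its 3 extreme bins and 0.182 without them, at rank 23 and 32. The 2p flank had 1.60 with them and 1.24 without. Over all flanks the mean level was 0.783 in replicate 1 and 0.769 in replicate 2 without extreme bins, against 0.997 and 0.999 in the rest of the same chromosomes.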

How the data were processed

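The authors deposited raw read counts per bin of 1000 bases for each library, per the text deposited with the series, and a bin without reads has no line. The submitters' processing notes name BWA 0.7.12 and the build hg19 (GRCh37). How bins were counted, and how duplicates and reads with several placements were treated, is not given in the sources used here, and this bears directly on repeats.

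Flanks, levels, bands of distance, extreme bins and joined clusters were computed from these counts as defined in the report, with positions counted from 1. The Poisson test covered 562365 listed 5 kb bins on the autosomes and X. There was no test between groups; errors are SDs over 2 libraries and may be technical. Named were the 5 highest and 5 lowest flanks, those under 50% listed, the 10 clusters with most reads, the 10 highest bins and the 5 longest domains; further flanks and bins were named after their values were seen. The regions, lists and limits were chosen with earlier results of these data known. Tools were scipy 1.17.1, pandas 2.3.3 and numpy 2.4.6 under Python 3.11.15, with matplotlib 3.10.9 for plots.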

Additional observations from a re-analysis of the deposited data

Results flagged for a closer look

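The contigs listed beside the chromosomes, which no comparison above uses, held 1 kb bins at or above 10-fold in both libraries. Among bins listed in either library, these were 85 of 134 on GL000220.1, 46 of 149 on GL000205.1, 21 of 178 on GL000219.1 and 10 of 168 on GL000195.1. They were 1 of 108 on GL000199.1 and 1 of 178 on GL000224.1. In all, 6 of 57 contigs held 164 such bins among 3581 listed ones, against 0.0404% of autosomal bins listed in both libraries. The mean level was 47.3 in replicate 1 and 51.0 in replicate 2 on GL000220.1, and 7.76 and 7.99 on GL000205.1. Where on the chromosomes these contigs belong was not examined here.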

How the results depend on the processing

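Counts of bins and the enriched share were taken as the same within 1.5 times and other values within 1 SD of the replicates. Of 47 alternatives, 17 left a result the same, 27 moved it and 3 reversed its sign. With 2 replicates, each lies within 1 SD of their mean by arithmetic. Leaving out a replicate thus counted as the same by construction for the mean level and the log2 ratio, and shows no stability. The mean flank level of 0.843 became 0.997 scaled to all autosomal bins, 2.16 scaled to the median bin, 0.854 scaled to the rest of the chromosome, 0.669 with unlisted bins as 0 and 0.776 without extreme bins. Scaling to all autosomal bins or to the median bin changes every bin of a library by the same factor. The ratio of the flanks to the rest of the same chromosomes is therefore unchanged by it. The mean flank level was otherwise compared with no rescaled value of the rest. The mean flank level was 0.731, 0.751 and 0.854 in flanks of 1, 2 and 5 Mb, and 0.769 without the flanks of chromosome 1. The log2 ratio of the outermost band to the innermost, -0.94, turned to 0.87 without extreme bins, 0.069 without chromosome 1 and 0.69 for medians; it was -0.75 with unlisted bins as 0, -0.89 without chromosome 2, -0.96 without chromosome 7 and -0.83 with the run bridging listed stretches of at most 5 bins. The listed share of 72.4% became 86.3% for either library, 67.2% with replicate 2 thinned in pairs, 67.2% in flanks of 1 Mb, and 76.0 to 82.8% with a replicate left out. The 145 extreme bins (all autosomes 921) became 1040 at 5-fold (57981), 22 at 20-fold (28) and 2319 scaled to the median (117725). They were 58 and 59 in flanks of 1 and 2 Mb, and 57 without chromosome 1. Of autosomal bins listed in both libraries, 73856 of 2281219 lay in the flanks. The share of listed bins that passed was thus higher in the flanks than over all autosomes at 10-fold and 20-fold. It was lower in the flanks at 5-fold and when scaled to the median. The enriched share of 10.2% (all tested bins 14.1%) became 5.68% at 3-fold (8.64%), 16.7% without a fold minimum (21.6%), 24.0% scaled to the median (30.0%) and 19.6% in completely listed bins (23.3%). With a replicate left out, the level was 0.837 to 0.850 and the log2 ratio -0.94 to -0.93. Extreme bins were then 151 to 166 (all autosomes 1217 to 1760) and the enriched share 10.9 to 11.03% (all tested bins 14.91 to 14.96%). Settings without a chromosome, the ratio of medians and the bridged ratio were added after the data were seen. Fewer bins in narrower flanks and a lower or higher minimum change counts by construction; the cause of the other moves was not tested. No paired analysis was possible because the series holds a single group.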

Other observations

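The same rule outside the 17 chromosomes gave further flanks, reported as values. The p-arm and q-arm flanks of chromosome X had levels of 0.259 and 0.218 in replicate 1 and 0.243 and 0.196 in replicate 2. Of their 596 and 582 tested 5 kb bins 1 and 0 were enriched, against 14.1% of all tested bins of chromosomes 1 to 22 and X. The p-arm flank held 1 extreme bin and the q-arm flank 0. On the acrocentric chromosomes, whose short arms are unlisted, the first 3 Mb after the longest run had 0.863 in replicate 1 and 0.851 in replicate 2 on chromosome 13, 1.74 and 1.75 on 14, 0.960 and 0.922 on 15, 0.460 and 0.446 on 21, and 0.733 and 0.711 on 22. Chromosome 14 was the highest of these, with 28.7% of tested 5 kb bins enriched and 11 extreme bins. On 15 and 21, 44.7% and 25.9% of 1 kb bins were listed in both libraries.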
